A study of Mus musculus with 12 samples.

Results

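The Hox genes encode homeodomain transcription factors and lie in 4 clusters, in which genes of the same paralogue position descend from 1 ancestral gene. All rows of the gene count tables whose symbol was Hoxa, Hoxb, Hoxc or Hoxd followed by a position number were taken. They were 37 of 23829 genes at 20 weeks and 37 of 23777 at 28 weeks, 38 genes in all, with 36 in both tables. RNA sequencing had been done on primary podocytes, whose foot processes form part of the glomerular filter, from mice made diabetic by HFD/STZ (a high-fat diet with streptozotocin). The knockout libraries came from Cre+/Nsd2fl/fl mice at 20 weeks (n = 3) and at 28 weeks (n = 3). The control libraries came from Cre-/Nsd2fl/fl mice at 20 weeks (n = 3) and at 28 weeks (n = 3), so all 4 groups carried the floxed alleles and had diabetic injury. The labels call the knockout podocyte-specific and name no promoter for the Cre transgene, and no group with Cre and intact alleles or without diabetic injury was analysed here. Separate animals behind the 3 libraries of each group are not stated, and p-values reflect only the spread of these libraries, possibly technical.

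Along a cluster, position 1 marks the 3′ end, expressed earliest and most anteriorly in the embryo, and position 13 the 5′ end, expressed latest and most posteriorly. Adult kidney cells keep a Hox pattern that reflects their embryonic origin: Hoxb7 is a classic gene of the ureteric bud and collecting duct, and in the mouse Hoxa11, Hoxc11 and Hoxd11 together are needed for the metanephric kidney to form. The clusters are textbook targets of Polycomb silencing and of the opposing Trithorax proteins. NSD2 places a dimethyl mark on histone H3 that hinders Polycomb methylation of the same histone tail.

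Libraries held between 31405349 and 38989180 counts, at which 0 reads still allow a level of up to 0.0769 to 0.0955 counts-per-million (CPM), with a limit of 3 counts that covers counting error only. Nsd2 itself averaged 43.6 ± 8.91 CPM in knockouts and 79.9 ± 13.8 CPM in controls at 20 weeks (SD, n = 3 each, edgeR adjusted p = 0.0402). At 28 weeks the averages were 37.8 ± 4.41 CPM in knockouts and 81.6 ± 4.96 CPM in controls (edgeR adjusted p = 0.00431), and the groups overlapped at neither age. Of 8 podocyte markers all were detected, and their summed level was 1568 to 2203 CPM in knockouts and 458 to 879 CPM in controls at 20 weeks. At 28 weeks the same sum was 458 to 2022 CPM in knockouts and 755 to 1397 CPM in controls. Nphs1, which encodes nephrin of the slit diaphragm, was low, with 4.82 ± 2.86 CPM in knockouts and 4.6 ± 3.03 CPM in controls at 20 weeks and 1.95 ± 1.36 CPM in knockouts and 10.7 ± 3.89 CPM in controls at 28 weeks. Control libraries 2 and 3 at 28 weeks resembled each other far more closely than the other same-group pairs did, with a biological coefficient of variation of 0.0471 beside 0.219 to 0.414 in the other 11 pairs. Knockout library 1 at 28 weeks stood apart from the other knockouts of its age in several Hox genes and marker lists, and results at that age are given with and without it. It was singled out by its values in these same genes. Calls made without it are therefore no separate support. In bulk samples such as these, fewer cells of a type and less RNA per cell cannot be told apart.

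**Figure D1:**
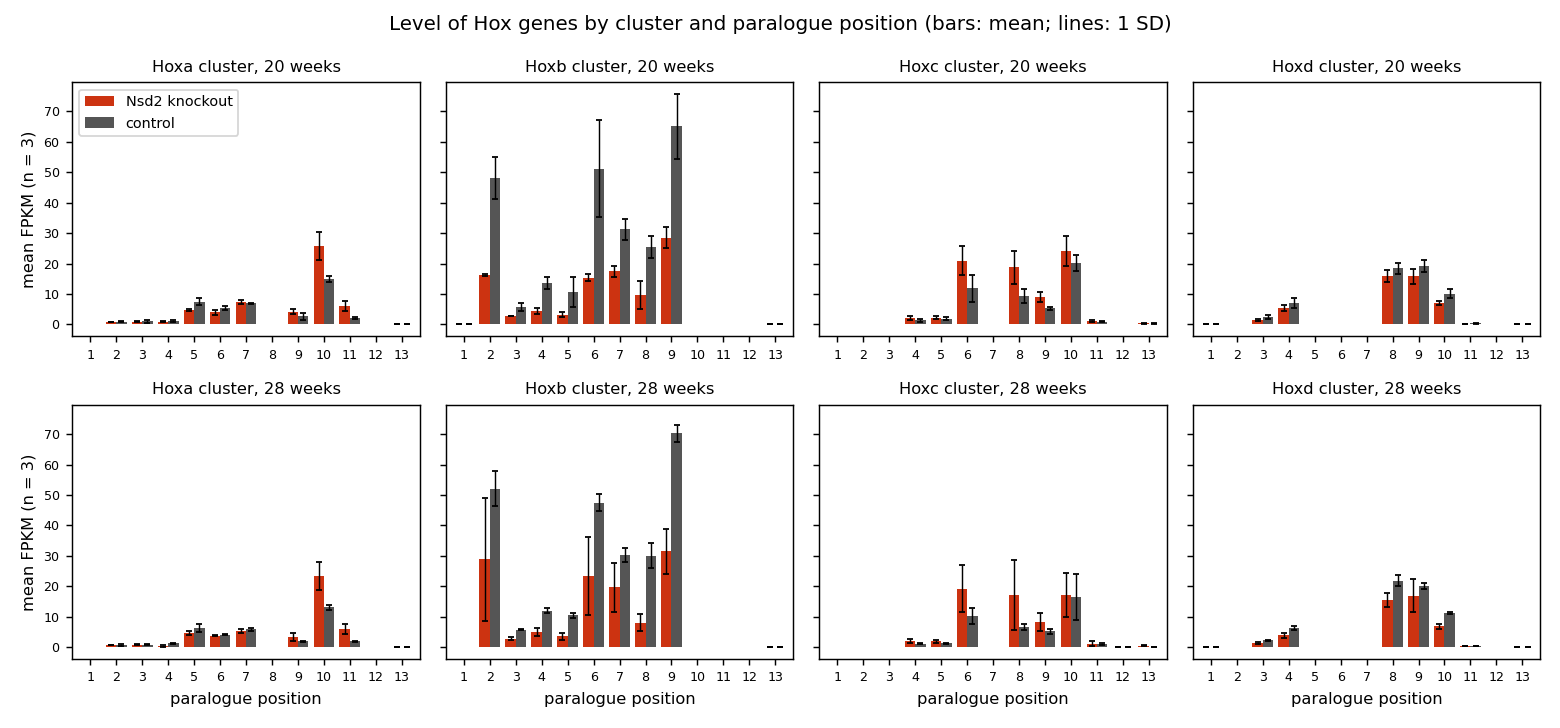
Mean FPKM of the Hox genes reported here against their paralogue position, in 4 columns for the Hoxa to Hoxd clusters and 2 rows for the ages; red bars are Nsd2 knockouts, grey bars controls, thin lines 1 SD (n = 3). Hoxb9 was the highest Hox gene in both groups at both ages, and the grey Hoxb bars exceed the red ones at each position from 2 to 9.

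The preparations expressed a broad middle block of the clusters. Levels between genes are compared in FPKM, which divides reads by the authors' gene length. That length differs from the annotation for some genes (Hoxb2: 1728 against 3488 bases in GENCODE M21), so the order of levels depends on it. In controls at 20 weeks the highest were Hoxb9 (65.2 FPKM), Hoxb6 (51.2), Hoxb2 (48.1), Hoxb7 (31.2) and Hoxb8 (25.5), all from the Hoxb cluster. In knockouts at 20 weeks the order was Hoxb9 (28.6 FPKM), Hoxa10 (25.7), Hoxc10 (24.2), Hoxc6 (21) and Hoxc8 (18.8). At 28 weeks knockouts held 31.5 FPKM of Hoxb9, 28.9 of Hoxb2 and 23.4 of Hoxa10, and controls held 70.3, 52.1 and 13.1 FPKM of the same genes. The ends of the clusters were close to silent: Hoxa13, Hoxb1, Hoxb13, Hoxc12, Hoxd1 and Hoxd13 had at most 12 reads over the 3 libraries of any group and were not tested, Hoxb1 being listed at 20 weeks only and Hoxc12 at 28 weeks only. Hoxd12 is in neither table. The other 32 genes passed the filter on low counts at both ages: 10 of the Hoxa, 8 of the Hoxb, 8 of the Hoxc and 6 of the Hoxd cluster.

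At 20 weeks all 8 tested Hoxb genes were lower in knockouts, while 4 genes of the Hoxa and Hoxc clusters, Hoxa10, Hoxa11, Hoxc8 and Hoxc9, were higher. The test was edgeR's quasi-likelihood F test with Benjamini-Hochberg adjustment over all genes, and a gene was called at an adjusted p below 0.05. Of the 32 genes, 4 were called higher, where the rate over all genes was 4.79%, and 8 were called lower, where it was 5.13%. The other 20 were not called, and in either direction the rate over all genes was 9.92%. The median log2 fold change was -0.22 over the 32 Hox genes and 0.01 over all 14853 genes tested. By cluster the medians were 0.04 for Hoxa, -1.39 for Hoxb, 0.76 for Hoxc and -0.29 for Hoxd.

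At 28 weeks 7 genes were lower in knockouts, among them Hoxb3, Hoxb4, Hoxb5, Hoxb8, Hoxb9 and Hoxd10, and Hoxa10 and Hoxa11 were higher. Over all genes 11.9% were called lower, 9.33% higher and 21.2% in either direction, so the 2 higher calls of 32 lie below the background share. The median log2 fold change of the 32 was -0.11, beside 0.07 over all 15011 genes tested. The cluster medians were 0.06 for Hoxa, -1.01 for Hoxb, 0.75 for Hoxc and -0.51 for Hoxd. Both ages called Hoxa10 and Hoxa11 higher and Hoxb3, Hoxb4, Hoxb5, Hoxb8 and Hoxb9 lower, which is 7 of the 12 calls at 20 weeks and 7 of the 9 at 28 weeks; the comparisons share no library. The sign of the change was the same at both ages in 29 of the 32 genes, the exceptions being Hoxa3, Hoxa7 and Hoxd11, none of them called. The shares of all genes with the same sign or the same call at both ages were not computed. These counts therefore do not show that Hox genes repeat between the ages more than other genes. Without knockout library 1 at 28 weeks 12 Hox genes were called lower and 8 higher, with 12.3% and 9.59% of all genes. Leaving out any other single library of that age left 2 to 6 called lower and 1 to 2 called higher. With the look-alike control libraries 2 and 3 summed to 1, 2 were called lower and 1 higher, with 1299 of all 15291 genes tested called in either direction. These 3 calls of 32 are near that background share. With a replicate block 0 Hox genes were called at 28 weeks, where 332 of all genes were. Each 28-week call given below therefore also ended in that setting.

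**Figure D2:**
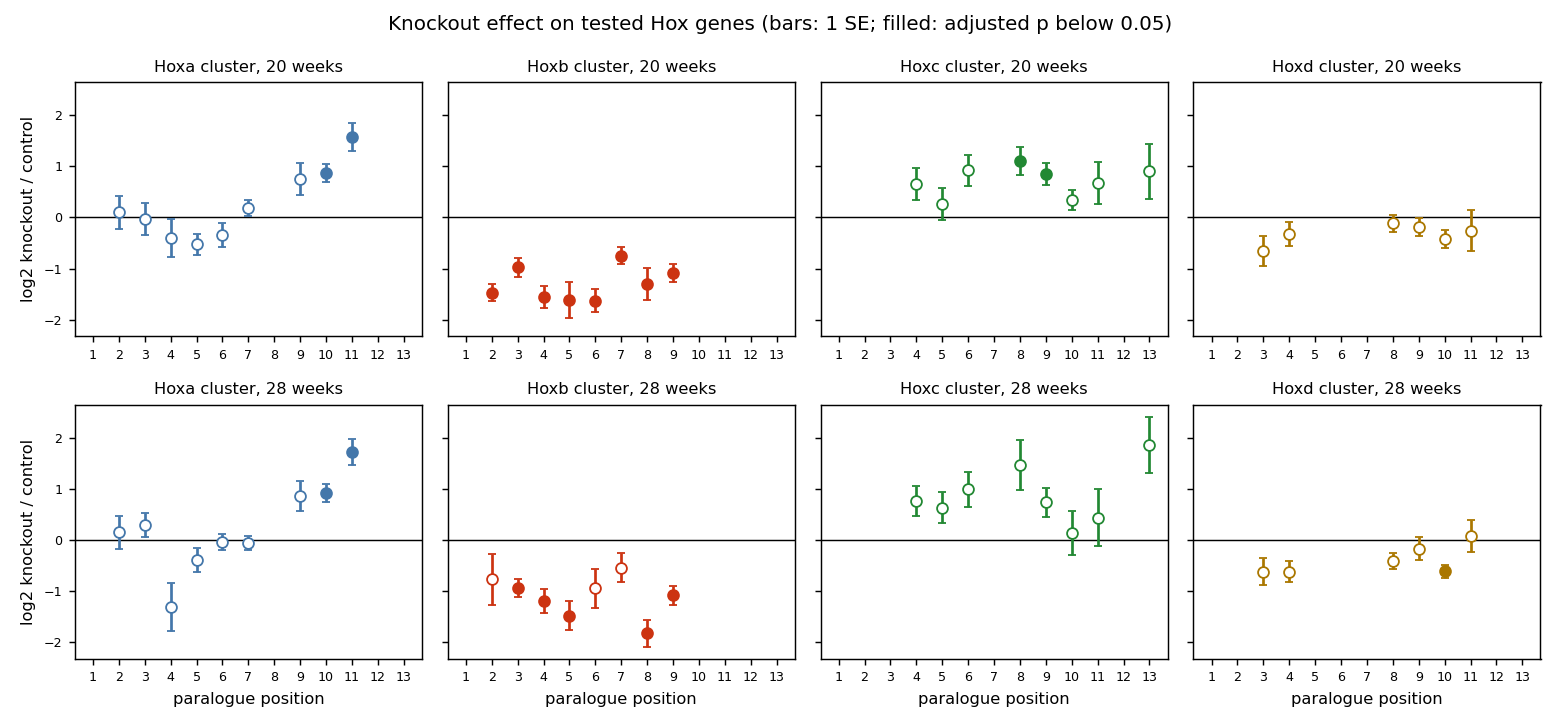
Log2 fold change of knockout over control for the tested Hox genes reported here against their paralogue position, by cluster (columns) and age (rows); vertical lines are 1 SE and filled points passed an adjusted p below 0.05. Every Hoxb point lies below 0 and every Hoxc point above it at both ages, while the Hoxa points are highest at positions 9 to 11.

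At each of the 8 positions held by a Hoxb gene, that gene had the lowest log2 fold change of its paralogues at 20 weeks, and at 7 of the 8 at 28 weeks, where Hoxa4 (log2 -1.32, adjusted p = 0.0977) lay below Hoxb4. The widest spread was at position 6 at 20 weeks, with Hoxc6 at 0.92 and Hoxb6 at -1.63, and at position 8 at 28 weeks, with Hoxc8 at 1.46 and Hoxb8 at -1.82.

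The Hoxb cluster held the largest share of Hox FPKM in controls, and all its tested genes fell at 20 weeks. Its genes lie on the plus strand of chromosome 11, from Hoxb13 to Hoxb1 at chr11:96194316-96368256 (GRCm38, GENCODE M21). Summed over the cluster, the level was 248 ± 35.7 CPM in knockouts and 574 ± 63.2 CPM in controls at 20 weeks (SD, n = 3 each). The sum at 28 weeks was 293 ± 102 CPM in knockouts and 598 ± 15 CPM in controls. The Hoxb share of the summed Hox FPKM was 31.5% to 42.5% in knockouts and 60.8% to 63% in controls at 20 weeks. This share at 28 weeks was 27.6% to 55% in knockouts and 61.5% to 66.4% in controls. No knockout library reached the lowest control in either quantity. All 8 genes were below every control in every knockout at 20 weeks, and 6 of 8 at 28 weeks; over all genes 16.7% and 22.8% were so separated.

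Among the fallen Hoxb genes Hoxb8 and Hoxb4 had a promoter in the RefSeq table used for sequences (GRCm38.p6), which held one for 5 of the 14 Hox genes called at either age. They are shown because their transcripts fell at both ages from starts in the same cluster. Each line gives the 250 bases before the transcription start. Capitals mark 4 motifs searched on both strands: the TATA box as TATAAA; the CCAAT box; the motif of TEAD factors, which act in the Hippo pathway, as GGAATG; and the composite of Pbx and Hox proteins as TGATNNAT.
Hoxb8, chr11:96281655-96281904, plus strand: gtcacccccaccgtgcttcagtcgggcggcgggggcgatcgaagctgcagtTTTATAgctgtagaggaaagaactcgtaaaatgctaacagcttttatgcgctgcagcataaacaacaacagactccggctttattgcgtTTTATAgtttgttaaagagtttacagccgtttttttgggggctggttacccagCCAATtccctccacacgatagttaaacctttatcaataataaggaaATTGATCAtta
Hoxb4, chr11:96318017-96318266, plus strand: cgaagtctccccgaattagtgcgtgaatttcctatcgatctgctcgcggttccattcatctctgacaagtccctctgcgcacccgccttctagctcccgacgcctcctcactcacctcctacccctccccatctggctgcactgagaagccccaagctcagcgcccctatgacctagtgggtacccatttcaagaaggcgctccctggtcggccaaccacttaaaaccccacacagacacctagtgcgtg

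The Hoxb8 window held 2 TATAAA matches, 1 CCAAT match and 1 Pbx and Hox match, with no overlap among them; the Hoxb4 window held no match. Of 32851 promoter windows of this length, 12.4% held TATAAA, 33.8% CCAAT, 7.68% the composite of Pbx and Hox and 12.6% the TEAD motif, which neither window contained. The windows held 12 and 14 CpG dinucleotides, against a median of 6 over all windows. Fewer were held by 66.5% of all windows for Hoxb8 and by 70.6% for Hoxb4.

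Hoxb9, the most posterior Hoxb gene expressed here and a factor of thoracic skeletal patterning, had 88.9, 82.4 and 68 CPM in knockouts 1 to 3, against 193, 166 and 151 CPM in controls 1 to 3 at 20 weeks. The Hoxb9 log2 fold change at 20 weeks was -1.09 (SE 0.18, adjusted p = 0.00993). At 28 weeks it had 90.7, 66 and 105 CPM in knockouts 1 to 3, against 197, 179.6 and 177 CPM in controls 1 to 3. The Hoxb9 log2 fold change at 28 weeks was -1.08 (SE 0.18, adjusted p = 0.0108). The groups did not overlap at either age, and the call held without each library in turn. Hoxb8, which holds back myeloid differentiation when overexpressed, had 45.5, 23.9 and 19.1 CPM in knockouts 1 to 3, against 80.5, 63.7 and 74.5 CPM in controls 1 to 3 at 20 weeks. The Hoxb8 log2 fold change at 20 weeks was -1.30 (SE 0.32, adjusted p = 0.0391). Knockout library 1 was the highest of the knockouts. That call ended without knockout libraries 2 or 3 or control libraries 1, 2 or 3 (log2 between -1.38 and -1.05, adjusted p between 0.0788 and 0.152) or when genes needed at least 1 CPM in 3 libraries (adjusted p = 0.0538). At 28 weeks Hoxb8 had 23.4, 16.7 and 32.9 CPM in knockouts 1 to 3, against 102, 79.7 and 77.2 CPM in controls 1 to 3. The Hoxb8 log2 fold change at 28 weeks was -1.82 (SE 0.27, adjusted p = 0.0072). This was the largest fall of the cluster at that age, and the call held without each library.

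Hoxb4, known for expanding blood stem cells when overexpressed, had 14.8, 10.0 and 10.0 CPM in knockouts 1 to 3, against 37.9, 30.7 and 33.5 CPM in controls 1 to 3 at 20 weeks. The Hoxb4 log2 fold change at 20 weeks was -1.55 (SE 0.22, adjusted p = 0.00645). Its levels at 28 weeks were 16, 8.8 and 14.6 CPM in knockouts 1 to 3, against 31.6, 27.3 and 31.1 CPM in controls 1 to 3. The Hoxb4 log2 fold change at 28 weeks was -1.19 (SE 0.24, adjusted p = 0.0173). Every knockout lay below every control at both ages; the call held without each library at 20 weeks and ended at 28 weeks without control libraries 1, 2 or 3 (log2 between -1.26 and -1.15, adjusted p between 0.0529 and 0.0681) or with controls 2 and 3 summed (adjusted p = 0.0592). Hoxb5, a factor of enteric neural crest and lung development, had 8.46, 5.08 and 5.46 CPM in knockouts 1 to 3, against 28.3, 12.2 and 17.6 CPM in controls 1 to 3 at 20 weeks. The Hoxb5 log2 fold change at 20 weeks was -1.61 (SE 0.35, adjusted p = 0.0284). In the older mice it had 8.91, 4.32 and 7.49 CPM in knockouts 1 to 3, against 19, 20.5 and 18.1 CPM in controls 1 to 3. The Hoxb5 log2 fold change at 28 weeks was -1.48 (SE 0.28, adjusted p = 0.0141). The groups were separate at both ages, although control library 1 at 20 weeks was well above the other controls. The call ended at 20 weeks without knockout libraries 2 or 3 or control library 1 (log2 between -1.50 and -1.25, adjusted p between 0.0972 and 0.109), and at 28 weeks without control libraries 2 or 3 (log2 between -1.52 and -1.43, adjusted p between 0.0518 and 0.058) or with controls 2 and 3 summed (adjusted p = 0.0547).

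Hoxb3, a hindbrain patterning gene, had 28.2, 26.5 and 26.3 CPM in knockouts 1 to 3, against 64.6, 43 and 51.3 CPM in controls 1 to 3 at 20 weeks. The Hoxb3 log2 fold change at 20 weeks was -0.97 (SE 0.19, adjusted p = 0.0182). The corresponding levels at 28 weeks were 33.7, 22.6 and 26.8 CPM in knockouts 1 to 3, against 56, 50.3 and 52.7 CPM in controls 1 to 3. The Hoxb3 log2 fold change at 28 weeks was -0.94 (SE 0.17, adjusted p = 0.0126). Again the groups did not overlap. The call ended at 20 weeks without knockout libraries 2 or 3 or control library 1 (log2 between -0.95 and -0.83, adjusted p between 0.0544 and 0.077) and at 28 weeks without control library 3 (log2 -0.94, adjusted p = 0.055) or with controls 2 and 3 summed (adjusted p = 0.051). In GENCODE M21 52.9% of the Hoxb3 exon bases and 27.3% of those of Hoxb2 are shared with Hoxb3os on the other strand, and no source used here names the strand setting of the counting, so their reads cannot be told apart. Hoxb3os itself was low, at 2.00 ± 0.231 CPM in knockouts and 5.02 ± 1.13 CPM in controls at 20 weeks (log2 -1.33, SE 0.29, adjusted p = 0.029) and 3.85 ± 1.31 CPM in knockouts and 4.28 ± 1.06 CPM in controls at 28 weeks (log2 -0.15, adjusted p = 0.792).

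Hoxb2, Hoxb6 and Hoxb7 fell at 20 weeks and were split among the knockouts at 28 weeks. Hoxb2, another hindbrain gene, had 29.8, 28.9 and 28.2 CPM in knockouts 1 to 3, against 76.9, 93.6 and 71.1 CPM in controls 1 to 3 at 20 weeks. The Hoxb2 log2 fold change at 20 weeks was -1.47 (SE 0.17, adjusted p = 0.00338). The 3 knockouts were close together, and the call held without each library. At 28 weeks it had 91.2, 19.8 and 43.2 CPM in knockouts 1 to 3, against 79, 93.9 and 89.5 CPM in controls 1 to 3. The Hoxb2 log2 fold change at 28 weeks was -0.77 (SE 0.50, adjusted p = 0.337). Here knockout library 1 was at the level of the controls and the other 2 were below it. Hoxb6 had 27.9, 25.9 and 23.4 CPM in knockouts 1 to 3, against 103, 59 and 77.1 CPM in controls 1 to 3 at 20 weeks. The Hoxb6 log2 fold change at 20 weeks was -1.63 (SE 0.23, adjusted p = 0.00626). This call also held without each library. At 28 weeks the values of Hoxb6 were 62.2, 20.0 and 33.8 CPM in knockouts 1 to 3, against 71.1, 75.2 and 76.6 CPM in controls 1 to 3. The Hoxb6 log2 fold change at 28 weeks was -0.94 (SE 0.38, adjusted p = 0.135). Knockout library 1 was nearest the controls. Hoxb7, the ureteric bud and collecting duct gene, had 41.5, 40.9 and 33.4 CPM in knockouts 1 to 3, against 62.9, 72.5 and 59.2 CPM in controls 1 to 3 at 20 weeks. The Hoxb7 log2 fold change at 20 weeks was -0.75 (SE 0.17, adjusted p = 0.0311). That call ended without knockout libraries 2 or 3 or control libraries 1, 2 or 3 (log2 between -0.81 and -0.63, adjusted p between 0.0585 and 0.144) and in 1 model of all 12 libraries (adjusted p = 0.0609). In the older mice Hoxb7 had 63.2, 27.6 and 39.7 CPM in knockouts 1 to 3, against 59.2, 65 and 65.4 CPM in controls 1 to 3. The Hoxb7 log2 fold change at 28 weeks was -0.54 (SE 0.29, adjusted p = 0.247). Again knockout library 1 was inside the control range. Without that library all 8 Hoxb genes were called lower at 28 weeks, with Hoxb2 at log2 -1.48, adjusted p = 0.0406, Hoxb6 at log2 -1.47, adjusted p = 0.0174 and Hoxb7 at log2 -0.92, adjusted p = 0.0319. Removing a library picked for lying near the controls in Hoxb2, Hoxb6 and Hoxb7 favours such calls. Leaving out any other library of that age gave 2 to 5 Hoxb calls. Hoxb8 was lower in knockout library 1 (23.4 CPM) than in knockout library 3 (32.9 CPM).

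**Figure D3:**
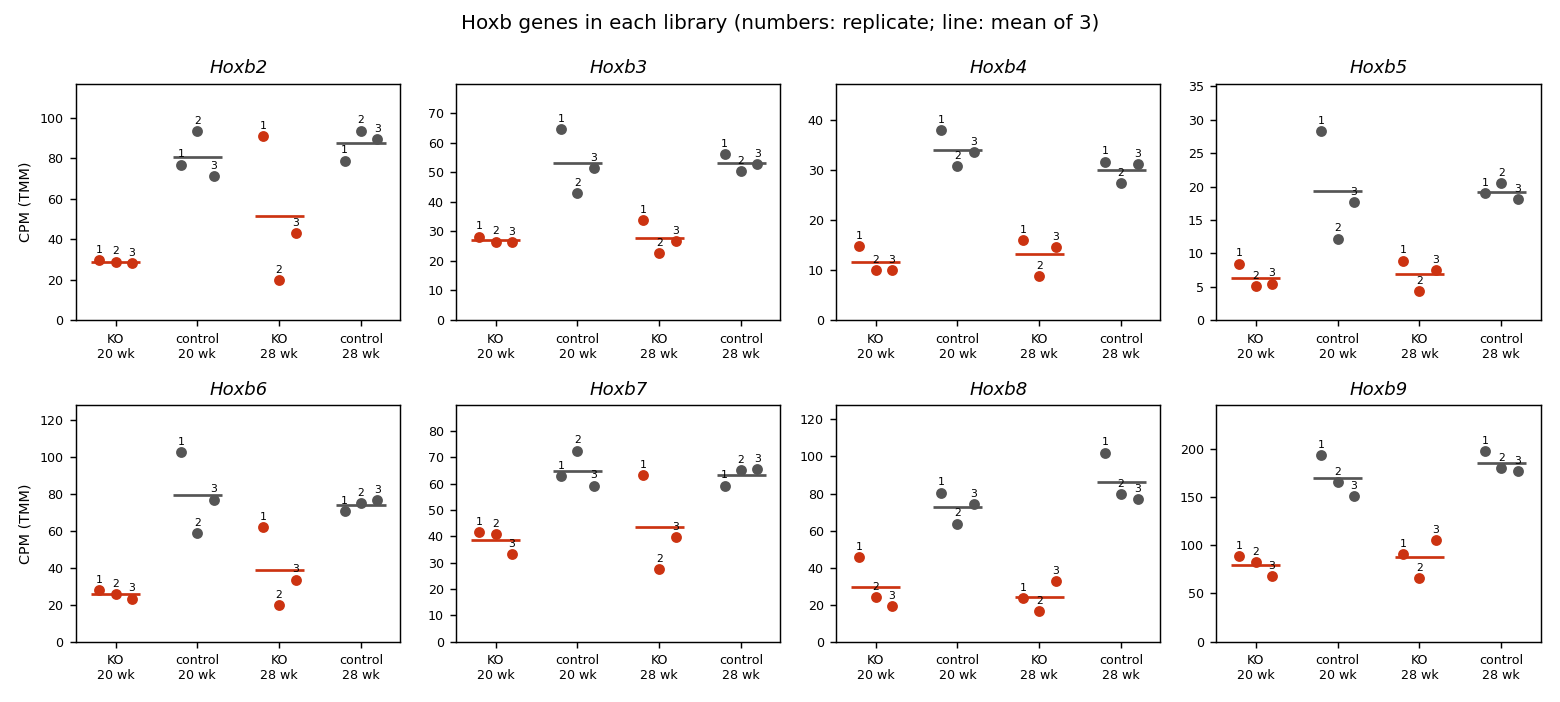
TMM-scaled CPM of the 8 tested Hoxb genes in each of the 12 libraries, knockouts in red and controls in grey, with the replicate number at each point and a line at the mean of 3. At 28 weeks knockout library 1 reaches the controls for Hoxb2 and Hoxb7 and not for Hoxb3, Hoxb4, Hoxb5, Hoxb8 or Hoxb9.

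In the Hoxa cluster, on the minus strand of chromosome 6, the posterior genes Hoxa10 and Hoxa11 rose at both ages. The summed level was 163 ± 21.5 CPM in knockouts and 119 ± 10.3 CPM in controls at 20 weeks (SD, n = 3 each). In the older mice the sum was 143 ± 19.4 CPM in knockouts and 101 ± 5.6 CPM in controls. Hoxa10, required in the mouse for lumbar skeletal pattern and for uterine receptivity, had 64.1, 93.6 and 79.8 CPM in knockouts 1 to 3, against 42.7, 40.8 and 46.8 CPM in controls 1 to 3 at 20 weeks. The Hoxa10 log2 fold change at 20 weeks was 0.87 (SE 0.18, adjusted p = 0.0255). Its 28-week levels were 69.1, 88.1 and 58.2 CPM in knockouts 1 to 3, against 36.3, 37.6 and 39.8 CPM in controls 1 to 3. The Hoxa10 log2 fold change at 28 weeks was 0.92 (SE 0.17, adjusted p = 0.0134). Every knockout was above every control at both ages, as held for 15.5% of all genes at 20 weeks and 19.3% at 28 weeks. The call ended at 20 weeks without knockout libraries 2 or 3 or control libraries 1, 2 or 3 (log2 between 0.74 and 0.92, adjusted p between 0.0554 and 0.107) and at 28 weeks without control libraries 2 or 3 (log2 between 0.91 and 0.95, adjusted p between 0.0556 and 0.0606) or with controls 2 and 3 summed (adjusted p = 0.0575).

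Hoxa11, one of the paralogues needed for the metanephric kidney, showed the largest rise among the called Hox genes. It had 12.2, 19.2 and 12.2 CPM in knockouts 1 to 3, against 4.3, 4.66 and 5.74 CPM in controls 1 to 3 at 20 weeks. The Hoxa11 log2 fold change at 20 weeks was 1.57 (SE 0.27, adjusted p = 0.0117). In the older mice it had 9.66, 17.4 and 15.3 CPM in knockouts 1 to 3, against 4.48, 4.27 and 4.06 CPM in controls 1 to 3. The Hoxa11 log2 fold change at 28 weeks was 1.72 (SE 0.25, adjusted p = 0.00726). The lowest knockout was above the highest control at both ages; the call ended at 20 weeks without control libraries 1 or 2 (log2 between 1.45 and 1.55, adjusted p between 0.0519 and 0.0556) and held without each library at 28 weeks. Hoxa11os, on the other strand, shares 35% of the Hoxa11 exon bases, so reads of the pair cannot be told apart. Hoxa11os was at 5.36 ± 1.26 CPM in knockouts and 2.7 ± 1.05 CPM in controls at 20 weeks (log2 0.99, SE 0.38, adjusted p = 0.148) and at 5.77 ± 1.16 CPM in knockouts and 1.69 ± 0.274 CPM in controls at 28 weeks (log2 1.77, SE 0.26, adjusted p = 0.00726). The promoters of both risen Hoxa genes are shown for comparison with those of the fallen Hoxb genes, with the same motifs in capitals; for Hoxa10, which has 2 starts in the table, the downstream one is printed.
Hoxa11, chr6:52245811-52246060, minus strand: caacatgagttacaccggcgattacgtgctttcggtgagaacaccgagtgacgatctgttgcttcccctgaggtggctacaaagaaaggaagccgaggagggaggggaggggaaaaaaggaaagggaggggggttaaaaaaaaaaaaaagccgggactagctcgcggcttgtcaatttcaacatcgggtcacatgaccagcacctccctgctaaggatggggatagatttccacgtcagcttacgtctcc
Hoxa10, chr6:52234940-52235189, minus strand: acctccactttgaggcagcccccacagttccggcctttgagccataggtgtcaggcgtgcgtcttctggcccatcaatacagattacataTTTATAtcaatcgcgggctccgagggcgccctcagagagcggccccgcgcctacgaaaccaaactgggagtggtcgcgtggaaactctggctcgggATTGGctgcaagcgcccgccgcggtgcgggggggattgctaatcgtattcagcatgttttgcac

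The Hoxa11 window, which overlaps exons of Hoxa11os, held no match of the 4 motifs and 13 CpG dinucleotides, and the Hoxa10 window held 1 TATAAA match, 1 CCAAT match and 20 CpG dinucleotides. The upstream Hoxa10 window, at the gene start annotated in GENCODE M21, held 0 TATAAA and 0 CCAAT matches and 7 CpG dinucleotides. The Hoxd10 window, from a gene lower at 28 weeks, held 0 TATAAA matches, 1 CCAAT match and 20 CpG dinucleotides. None of these windows held the TEAD letters.

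Hoxa9, next to them, was higher without a call (log2 0.75, adjusted p = 0.186 at 20 weeks and log2 0.86, adjusted p = 0.0866 at 28 weeks). Hoxa7, second in FPKM in this cluster, had 25.4, 28.7 and 23.7 CPM in knockouts 1 to 3, against 22.2, 23.3 and 22.8 CPM in controls 1 to 3 at 20 weeks (log2 0.19, adjusted p = 0.548). At 28 weeks Hoxa7 had 20.9, 17.2 and 17.7 CPM in knockouts 1 to 3, against 21.5, 18.7 and 17.9 CPM in controls 1 to 3 (log2 -0.06, adjusted p = 0.827). It was not called at either age. Hoxa2 to Hoxa6 had log2 fold changes between -0.53 and 0.10 at 20 weeks and between -1.32 and 0.30 at 28 weeks, with no call. Without knockout library 1 at 28 weeks Hoxa4 was called lower (log2 -1.94, adjusted p = 0.0178) and Hoxa9 higher (log2 1.04, adjusted p = 0.0337).

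All 8 tested Hoxc genes (chr15:102921103-103036852, plus strand) had positive log2 fold changes at both ages, and 2 of them were called, both at 20 weeks only. The cluster summed to 205 ± 45.7 CPM in knockouts and 122 ± 18.4 CPM in controls at 20 weeks (SD, n = 3 each). The 28-week sum was 177 ± 74.3 CPM in knockouts and 101 ± 31.3 CPM in controls. Hoxc8, a factor of limb-level motor neurons and the thoracic skeleton, had 31.2, 55.3 and 52.7 CPM in knockouts 1 to 3, against 26.7, 16.9 and 21.4 CPM in controls 1 to 3 at 20 weeks. The Hoxc8 log2 fold change at 20 weeks was 1.10 (SE 0.27, adjusted p = 0.0399). Hoxc9, which specifies thoracic motor neurons, had 21.7, 30.8 and 23.9 CPM in knockouts 1 to 3, against 11.9, 14.9 and 15.7 CPM in controls 1 to 3 at 20 weeks. The Hoxc9 log2 fold change at 20 weeks was 0.85 (SE 0.21, adjusted p = 0.0419). In both, every knockout was above every control. The call of Hoxc8 ended without knockout libraries 2 or 3 or control libraries 1, 2 or 3 (log2 between 0.96 and 1.25, adjusted p between 0.0761 and 0.138), and that of Hoxc9 without knockout libraries 2 or 3 or control libraries 1, 2 or 3 (log2 between 0.70 and 0.93, adjusted p between 0.0757 and 0.12). Outside those runs the Hoxc8 call held in 3 of 9 other settings and the Hoxc9 call in 6 of 9. Both ended with total count scaling (adjusted p = 0.0627 and 0.0513), in the model of all 12 libraries (0.138 and 0.0578) and with limma on log2(FPKM + 1) (0.0647 and 0.0565). The Hoxc8 call also ended when genes needed 1 CPM in 3 libraries (adjusted p = 0.0547) and with limma on log2(FPKM + 0.1) (0.055). It ended with a replicate block as well.

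At 28 weeks no Hoxc gene was called, and knockout library 1 was the lowest knockout in the genes given here. Hoxc8 had 17.7, 73.8 and 35 CPM in knockouts 1 to 3, against 18.3, 13.3 and 14.2 CPM in controls 1 to 3. The Hoxc8 log2 fold change at 28 weeks was 1.46 (SE 0.49, adjusted p = 0.0846). Knockout library 1 lay inside the control range and knockout library 2 far above it. Hoxc9 had 16.5, 32.5 and 20.5 CPM in knockouts 1 to 3, against 17.1, 12.3 and 12.2 CPM in controls 1 to 3. The Hoxc9 log2 fold change at 28 weeks was 0.74 (SE 0.29, adjusted p = 0.122). The knockouts kept the order seen for Hoxc8. Hoxc6 had 38.6, 88.3 and 56.5 CPM in knockouts 1 to 3, against 41, 25.4 and 26 CPM in controls 1 to 3 at 28 weeks (log2 0.99, adjusted p = 0.0911). At 20 weeks Hoxc6 had 49.3, 78.4 and 72.7 CPM in knockouts 1 to 3, against 45.2, 21.8 and 38.9 CPM in controls 1 to 3, without overlap and without a call (log2 0.92, adjusted p = 0.0967). Hoxc10, the most abundant Hoxc gene in controls by FPKM, had 37.8, 57.6 and 47.9 CPM in knockouts 1 to 3, against 39.4, 40.5 and 33 CPM in controls 1 to 3 at 20 weeks (log2 0.34, adjusted p = 0.337). The groups overlapped widely at 28 weeks, with 18.9, 35.7 and 46.8 CPM in knockouts 1 to 3, against 48.2, 21.9 and 22.4 CPM in controls 1 to 3 (log2 0.13, adjusted p = 0.867). Hoxc13, the last of the cluster and a hair follicle gene, was low, and its log2 fold change was 0.90 at 20 weeks and 1.86 at 28 weeks without a call (adjusted p = 0.361 and 0.0595). Without knockout library 1 at 28 weeks 5 of the 8 were called higher: Hoxc4 (log2 0.95, adjusted p = 0.0415), Hoxc6 (log2 1.22, adjusted p = 0.0289), Hoxc8 (log2 1.81, adjusted p = 0.0163), Hoxc9 (log2 0.92, adjusted p = 0.0468) and Hoxc13 (log2 2.20, adjusted p = 0.0221).

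**Figure D4:**
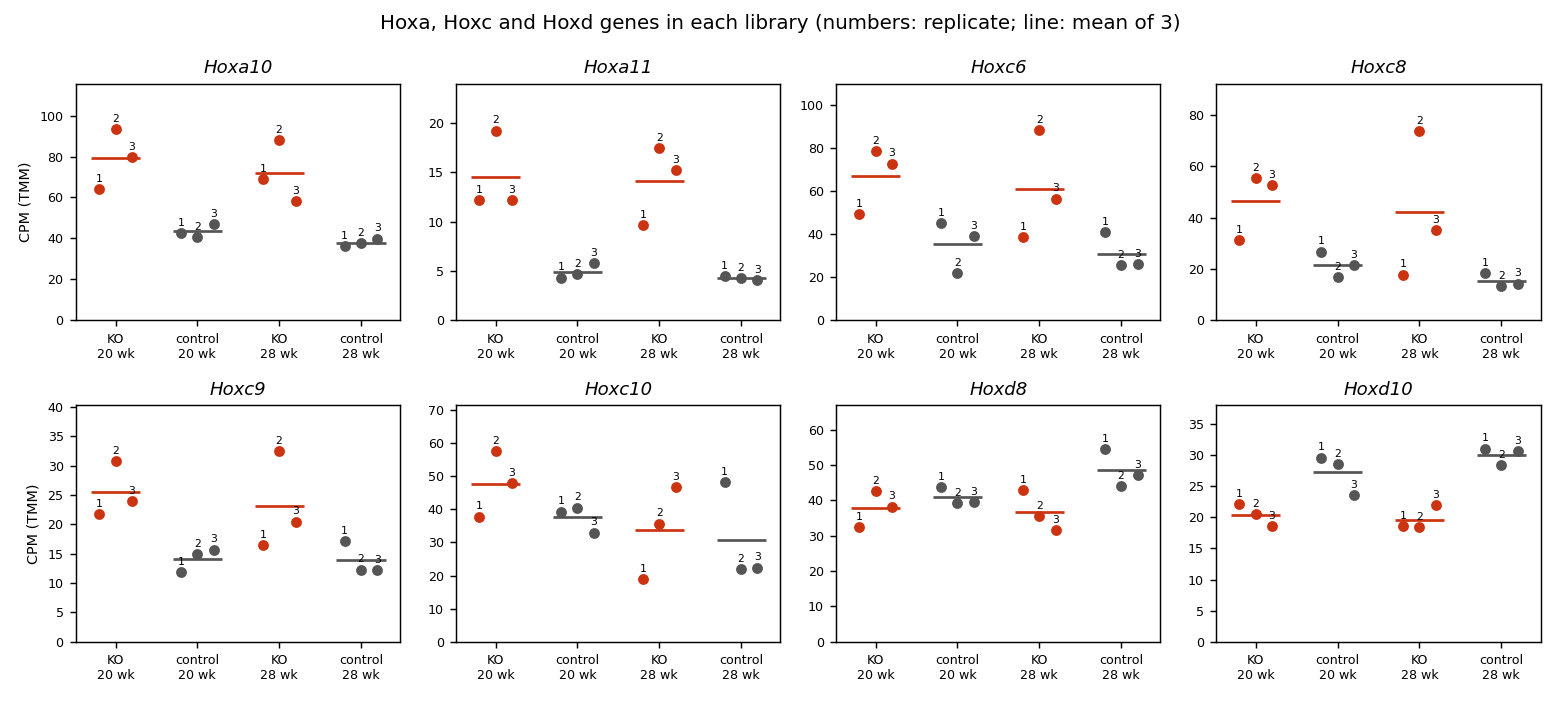
TMM-scaled CPM of 8 Hoxa, Hoxc and Hoxd genes in each of the 12 libraries, knockouts in red and controls in grey, with the replicate number at each point and a line at the mean of 3. Hoxa10 and Hoxa11 are higher in every knockout than in any control of the same age, whereas Hoxc6, Hoxc8 and Hoxc9 at 28 weeks have knockout library 1 within the control range.

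The Hoxd cluster (chr2:74668310-74765142, plus strand) had 1 gene called. It summed to 112 ± 10.3 CPM in knockouts and 133 ± 12.5 CPM in controls at 20 weeks (SD, n = 3 each). At 28 weeks the cluster summed to 109 ± 18.1 CPM in knockouts and 143 ± 4.37 CPM in controls. Hoxd10, a limb and lumbar motor neuron gene, was called at 28 weeks, where it had 18.5, 18.4 and 22 CPM in knockouts 1 to 3, against 31, 28.4 and 30.6 CPM in controls 1 to 3. The Hoxd10 log2 fold change at 28 weeks was -0.61 (SE 0.13, adjusted p = 0.0206). At 20 weeks it had 22.1, 20.5 and 18.6 CPM in knockouts 1 to 3, against 29.6, 28.6 and 23.6 CPM in controls 1 to 3 (log2 -0.42, adjusted p = 0.181), also without overlap but not called. The 28-week call ended without knockout library 2 or control libraries 1, 2 or 3 (log2 between -0.65 and -0.58, adjusted p between 0.0536 and 0.0907) or with controls 2 and 3 summed (adjusted p = 0.0767). Hoxd9 and Hoxd8 were the most abundant Hoxd genes by FPKM. Hoxd9 had 32.6, 41.1 and 29.9 CPM in knockouts 1 to 3, against 38.6, 43.1 and 35.9 CPM in controls 1 to 3 at 20 weeks (log2 -0.18, adjusted p = 0.601). At 28 weeks Hoxd9 had 49.9, 27.2 and 32.4 CPM in knockouts 1 to 3, against 39.8, 40.8 and 42.3 CPM in controls 1 to 3 (log2 -0.17, adjusted p = 0.666). Its groups overlapped at both ages. Hoxd8 overlapped at 20 weeks, with 32.5, 42.5 and 38.2 CPM in knockouts 1 to 3, against 43.8, 39.2 and 39.4 CPM in controls 1 to 3 (log2 -0.11, adjusted p = 0.744). At 28 weeks the groups of Hoxd8 were separate but not called, with 43, 35.5 and 31.7 CPM in knockouts 1 to 3, against 54.6, 44 and 47.2 CPM in controls 1 to 3 (log2 -0.41, adjusted p = 0.125). Without knockout library 1 at 28 weeks Hoxd8 was called lower (log2 -0.55, adjusted p = 0.0335), and Hoxd10 stayed called (log2 -0.58, adjusted p = 0.0458). Hoxd3 and Hoxd4, whose annotated exons share 62.8% and 52.3% of their bases with other genes including each other, had log2 fold changes between -0.66 and -0.32 over both ages, with no call. Hoxd11, the third of the kidney-forming paralogues, was low in all groups, with no call (log2 -0.26, adjusted p = 0.758 at 20 weeks and log2 0.07, adjusted p = 0.9 at 28 weeks). Hoxc11 was also not called (log2 0.67, adjusted p = 0.36 at 20 weeks and log2 0.44, adjusted p = 0.632 at 28 weeks). Over both ages Hoxd11 averaged 0.33 FPKM in knockouts and 0.37 FPKM in controls, and Hoxc11 1.20 FPKM in knockouts and 0.87 FPKM in controls.

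No difference of the knockout effect between the ages was shown for any Hox gene. In 1 edgeR model of all 12 libraries no Hox gene was called for a change of the knockout effect from 20 to 28 weeks, for 28 against 20 weeks in knockouts, or for 28 against 20 weeks in controls, and the share of all genes called was 0% in each. At an unadjusted p below 0.05 the 3 contrasts had 0, 1 and 0 Hox genes of 32, the 1 being Hoxa7 in knockouts (log2 -0.45, adjusted p = 0.429), and DESeq2 called 0 Hox genes in each. Over all genes the counts at that unadjusted p were 1428, 1759 and 466, and DESeq2 called 25, 36 and 1. The estimates were not tight enough to show likeness: the change of effect was 0.71 (SE 0.56, adjusted p = 0.661) for Hoxb2, -0.52 (SE 0.46, adjusted p = 0.693) for Hoxb8, 0.17 (SE 0.34, adjusted p = 0.85) for Hoxa11 and 0.39 (SE 0.59, adjusted p = 0.813) for Hoxc8 on the log2 scale. Each age has its own deposited table, and age and table handling cannot be told apart. For the knockout against control in that model, 2 Hox genes were called higher and 7 lower at 20 weeks, where 11.1% of all genes were called. At 28 weeks 4 were called higher and 8 lower, where 19.7% of all genes were called.

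The cell type marker lists are set against the shares of all genes called. These were 4.79% higher and 5.13% lower at 20 weeks, and 9.33% higher and 11.9% lower at 28 weeks. Of 17 collecting duct and distal tubule markers, 6 of the 12 tested fell at 20 weeks and 3 of the 15 tested at 28 weeks, and 0 rose. Their summed level was 216 to 1603 CPM in knockouts and 2807 to 6002 CPM in controls at 20 weeks. Keratins, Cdh1, Mal, Tfcp2l1 and Wfdc2 made up most of it. Several members restricted to 1 segment were low in both groups at 20 weeks, such as Aqp3 (0.0277 ± 0.0479 CPM in knockouts and 0.107 ± 0.0983 CPM in controls), Calb1 (0.0184 ± 0.0319 CPM in knockouts and 0.42 ± 0.374 CPM in controls) and Umod (0.323 ± 0.559 CPM in knockouts and 0.211 ± 0.319 CPM in controls). Scnn1g fell from 1.95 ± 0.784 CPM in controls to 0.083 ± 0.144 CPM in knockouts at 20 weeks (log2 -4.48, edgeR adjusted p = 0.034). It was also lower at 28 weeks, with 0.0319 ± 0.0314 CPM in knockouts and 2.25 ± 0.843 CPM in controls (log2 -6.03, edgeR adjusted p = 0.00476). Avpr2 was not called at 20 weeks (log2 -4.26, edgeR adjusted p = 0.0502) or 28 weeks (log2 -0.99, edgeR adjusted p = 0.708). The list summed at 28 weeks to 7460.4, 89.5 and 552 CPM in knockout libraries 1 to 3, against 3419, 6603 and 6691 CPM in control libraries 1 to 3. Knockout library 1, in which Hoxb2 and Hoxb7 were at control level, was also the highest of all 6 in this list, mainly through Krt8 (5545 CPM). It was far below the controls in Cdh1, which encodes E-cadherin (18.9, 2.18 and 38 CPM in knockouts, against 805, 509 and 521 CPM in controls). Aqp2, the water channel that defines the collecting duct principal cell, had 0 reads in the 3 knockouts and in 2 of the 3 controls at 20 weeks (0.0259 CPM in control library 1), and is not listed at 28 weeks.

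The all-gene shares were again 4.79% higher and 5.13% lower at 20 weeks, and 9.33% higher and 11.9% lower at 28 weeks. Of 11 pericyte, mesangial and smooth muscle markers, which share Gata3 with the list before, 8 rose and 1 fell at 20 weeks, and 3 rose at 28 weeks. Their sum was 9309 to 13286 CPM in knockouts and 4153 to 4561 CPM in controls at 20 weeks, and at 28 weeks it was 6662, 15266 and 11502 CPM in knockout libraries 1 to 3 and 2870.0 to 3054 CPM in controls. Acta2 and Tagln made up most of it. At 28 weeks the 3 that rose were Rgs5, Acta2 and Tagln, and knockout library 1 was above every control in each. Pdgfrb, Myh11, Cspg4 and Notch3 were below every control in that library. Pdgfrb was at 26.7 CPM there, against 120, 39.1 and 40.4 CPM in controls 1 to 3. Knockout library 2 at 28 weeks, lowest of all in the Hoxb sum and highest in the Hoxc sum, was also lowest in the collecting duct list and highest in the pericyte list. Podocyte markers had 5 called higher and 1 lower of 8 at 20 weeks, and 0 higher and 2 lower at 28 weeks. Proximal tubule, parietal and endothelial markers had 1 lower, 0 and 1 higher called at 20 weeks, and 0, 1 lower and 0 at 28 weeks. Leukocyte markers had 0 called at 20 weeks and 2 higher of 4 tested at 28 weeks, where their sum was 564 to 801 CPM in knockouts and 55.1 to 70.4 CPM in controls. Most of that sum was Lyz2, with 651 ± 140 CPM in knockouts and 49.4 ± 1.43 CPM in controls. The other gene called was Tyrobp. Ptprc (5.6 ± 4.94 CPM in knockouts and 3.91 ± 2.18 CPM in controls, edgeR adjusted p = 0.68) and C1qb (edgeR adjusted p = 0.139) were not called. The part of these cell types in the Hox changes was not tested.

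**Figure D5:**
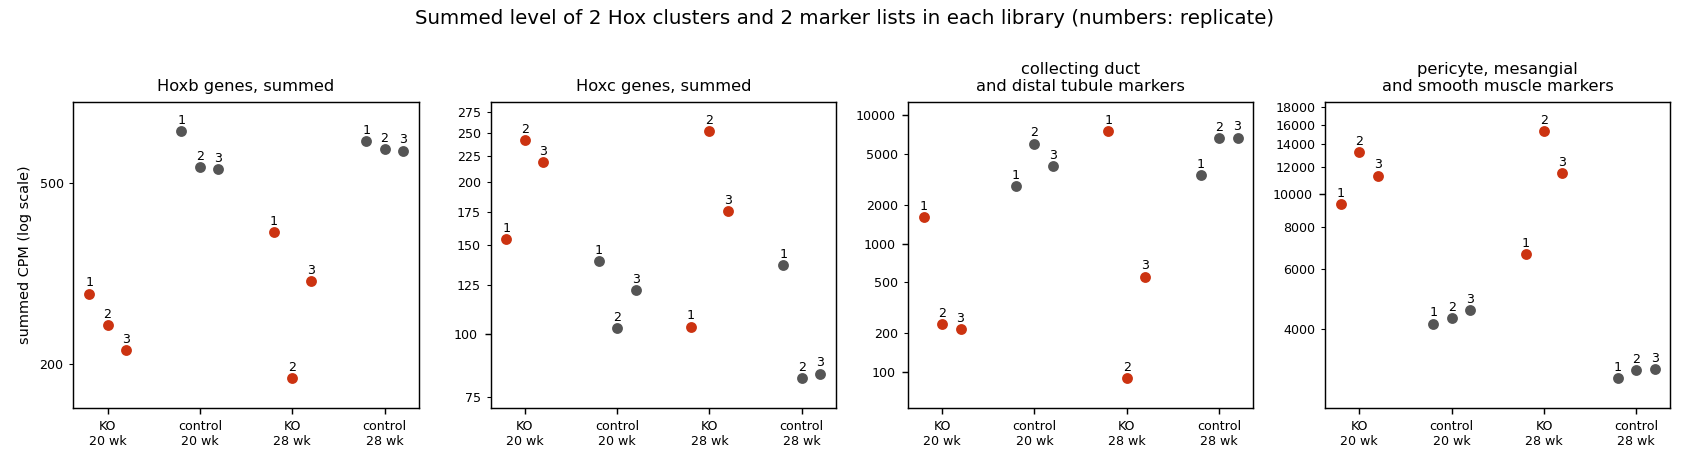
Summed TMM-scaled CPM, on log axes, of the Hoxb genes, the Hoxc genes, the collecting duct and distal tubule markers and the pericyte, mesangial and smooth muscle markers in each of the 12 libraries, knockouts in red and controls in grey with replicate numbers. Knockout library 1 at 28 weeks is the highest knockout in the Hoxb sum and the collecting duct list and the lowest in the Hoxc sum and the pericyte list.

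The genes beside the clusters are set against 9.92% of all genes called at 20 weeks and 21.2% at 28 weeks; with so few neighbours, counts of 0 or 1 are near those shares. Of 3 tested neighbours of the Hoxb cluster, Skap1, Snx11 and Cbx1, 0 were called at either age; Snx11, a sorting nexin gene, was at 43.3 ± 3.71 CPM in knockouts and 51.1 ± 3.04 CPM in controls at 20 weeks (log2 -0.24, adjusted p = 0.393). Neighbours of the Hoxa cluster had 0 calls of 4 at each age. Those of the Hoxc cluster had 0 of 4 at 20 weeks and 1 lower of 4 at 28 weeks, Hnrnpa1, an RNA-binding protein gene (log2 -0.72, SE 0.12, adjusted p = 0.00916), opposite in sign to the Hoxc genes. Those of the Hoxd cluster had 0 of 4 and 1 lower of 4, Atf2 (log2 -0.69, SE 0.15, adjusted p = 0.0206), a stress-responsive transcription factor. Among noncoding transcripts of the clusters, Hoxb3os fell at 20 weeks as given above, and Hoxa11os and Halr1 rose at 28 weeks. Halr1, a long noncoding RNA, had 2.38, 1.91 and 2.09 CPM in knockouts, against 0.486, 0.488 and 0.828 CPM in controls (log2 1.82, SE 0.33, adjusted p = 0.0126), while at 20 weeks it was not called (log2 -0.18, adjusted p = 0.925).

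The lists of Hox partners and chromatin regulators held shares of calls near or below those of all genes (9.92% at 20 weeks and 21.2% at 28 weeks). TALE homeodomain cofactors, which bind DNA together with Hox proteins, had 0 of 9 called at 20 weeks and 1 lower of 9 at 28 weeks, Pknox1 (log2 -0.49, SE 0.14, adjusted p = 0.0489). Polycomb genes had 1 higher of 25 at 20 weeks and 2 higher and 4 lower at 28 weeks, with medians of 0.07 and -0.16. Ring1, a ubiquitin ligase of Polycomb complex PRC1, was the gene called at both ages (log2 0.76, SE 0.16, adjusted p = 0.0257 at 20 weeks and log2 0.53, SE 0.12, adjusted p = 0.0269 at 28 weeks). Cbx8, a chromobox reader in the same complex, rose at 28 weeks (log2 0.92, SE 0.19, adjusted p = 0.0181), and Phc1 (log2 -0.94, SE 0.19, adjusted p = 0.0183), Phc2 (log2 -0.49, SE 0.11, adjusted p = 0.0216) and Jarid2 (log2 -0.57, SE 0.12, adjusted p = 0.021), a partner of the methylating complex PRC2, fell. Trithorax and MLL genes had 0 of 12 called at 20 weeks and 2 lower at 28 weeks, the lysine demethylase Kdm6a (log2 -0.60, SE 0.14, adjusted p = 0.0311) and the methyltransferase Dot1l (log2 -0.86, SE 0.20, adjusted p = 0.0275).

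Of 21 kidney development genes and retinoid or Cdx regulators of Hox clusters, 17 were tested at each age, with 1 higher and 2 lower at 20 weeks and 2 higher and 4 lower at 28 weeks. Over all genes 9.92% were called at 20 weeks and 21.2% at 28 weeks. The shares of this list lie above those, in a list chosen with earlier results known. Pax2, the nephric lineage factor that acts with Hoxa11 and its paralogues and Eya1 in the embryonic kidney, had 13.5, 7.38 and 5.23 CPM in knockouts, against 41.2, 27.7 and 40.6 CPM in controls at 20 weeks (log2 -2.07, SE 0.36, adjusted p = 0.0121). It was also lower at 28 weeks (log2 -2.32, SE 0.37, adjusted p = 0.0089). Eya1 was higher at 28 weeks (log2 1.15, SE 0.30, adjusted p = 0.0384) and was not called at 20 weeks (log2 0.91, adjusted p = 0.204). Rarb, a retinoic acid receptor, fell at 20 weeks (log2 -0.92, SE 0.24, adjusted p = 0.0498), and Wt1, which podocytes keep in the adult, rose (log2 1.05, SE 0.25, adjusted p = 0.0394). At 28 weeks both kept their sign without a call (Rarb log2 -0.90, edgeR adjusted p = 0.156, and Wt1 log2 0.48, edgeR adjusted p = 0.498). Lhx1 (log2 -3.73, SE 0.67, adjusted p = 0.0124) and Sall1 (log2 -0.87, SE 0.16, adjusted p = 0.0132), both factors of early nephrons, fell at 28 weeks, and the stromal factor Tbx18 rose there (log2 2.96, SE 0.66, adjusted p = 0.0242). Tbx18 was near the floor in those controls (0.102 to 0.226 CPM). At 20 weeks Lhx1, Sall1 and Tbx18 had the same signs without a call (log2 -2.61, -0.31 and 1.40, edgeR adjusted p = 0.105, 0.38 and 0.0562).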

How the data were processed

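RNA sequencing of primary podocytes gave 12 libraries in 4 groups of 3. Per the file headers, the authors deposited 1 table of raw counts per gene at each age, and FPKM values, which divide each count by 1 length per gene and by the column total. GRCm38 (mm10) is the build named in the submitters' processing notes. No source used here names the aligner, counting program, annotation or strand setting. Genes without a read at an age are not listed. The length implied by the FPKM differs from the GENCODE M21 exon length for some genes (Hoxb3: 9627 against 4251 bases), which shifts their FPKM but no fold change.

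Each age was fitted on all its genes in R 4.3.3 by the quasi-likelihood F test of edgeR 4.0.16, with TMM scaling, the default filterByExpr, no block and Benjamini-Hochberg adjustment over 14853 genes at 20 weeks and 15011 at 28 weeks. Standard errors were derived from the fold change and F. CPM use TMM-scaled library sizes. Age contrasts came from 1 model of 12 libraries over 15662 genes. Alternatives were DESeq2 1.42.0, limma 3.58.1 on log2(FPKM + 0.1) or log2(FPKM + 1), other scalings and filters, a replicate block, summed libraries and leaving out each library. The fits of each age were run on simulated counts that gave every gene the same dispersion. That run does not show how they perform at the spread of these libraries. Values in every library are given for called genes and the 2 most abundant of each cluster by mean FPKM; other genes are given by range or by log2 fold change. Of 1 gene that the counts include, the result is not reported here. The members and all lists were chosen with earlier results of these data known. Gene positions are from GENCODE M21 (GRCm38) and promoters from RefSeq (GRCm38.p6), with 1-based coordinates.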

Additional observations from a re-analysis of the deposited data

How the results depend on the processing

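Among the 14 Hox genes called at either age, no log2 fold change turned its sign under any alternative. Signs by cluster were the same under RLE and total count scaling, except Hoxd11 at 28 weeks, which was below 0 with total count scaling. At 20 weeks the 4 higher calls became 2 with total count scaling, in the model of all 12 libraries and with limma on log2(FPKM + 1), and the 8 lower calls, all Hoxb, stayed between 7 and 8 in number outside the runs that leave out a library. At 28 weeks the 2 higher calls became 6 with DESeq2, 4 in the model of all 12 libraries and 1 with control libraries 2 and 3 summed, and the 7 lower calls became 2, both Hoxb, with those libraries summed. Leaving out 1 library gave 0 to 5 higher and 4 to 8 lower calls at 20 weeks (Hoxb 4 to 8), and 1 to 8 higher and 2 to 12 lower calls at 28 weeks (Hoxb 2 to 8). The counts of 0 for the contrasts between ages were 0 in every alternative run. The labels do not state that replicate numbers are pairs, so they were not taken as pairs. Knockout and control libraries of the same number did not consistently deviate together (r between -0.638 and 0.42). With 3 libraries in each group this check cannot settle whether they were paired. With a replicate block the calls at 20 weeks were 3 higher and 8 lower, and at 28 weeks 0 higher and 0 lower, Hoxb included, with 332 of all genes called in place of 3183. DESeq2 called 2401 of 17326 genes in all at 20 weeks, against 1473 with edgeR, and 4266 of 17729 at 28 weeks, against 3183 with edgeR. Summing control libraries 2 and 3 at 28 weeks left 1299. Leaving out 1 library gave 517 to 2023 at 20 weeks and 1266 to 3374 at 28 weeks. The cause of these shifts was not tested. Genes with few reads, such as Hoxc11, Hoxc13 and Hoxd11, had standard errors of 0.32 to 0.56 on the log2 scale. Some genes with many more reads had errors as large at 28 weeks, such as Hoxb2 (0.50) and Hoxc8 (0.49). Changes within these errors were not detectable with these libraries.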
